A study of Mus musculus with 12 samples.

Results

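The interferon-induced GTPase genes Gbp2, Gbp3 and Gbp6 of the guanylate-binding protein family and Igtp, Irgm1, Irgm2, Iigp1, Ifi47 and Tgtp1 of the immunity-related GTPase family were followed in the submandibular salivary gland of mice at 8 and 50 weeks of age. A probe was taken as theirs when the annotation of the array gave it 1 gene symbol and that symbol was 1 of the 9 names. These were 17 of 45281 probes, and 9 of 19057 genes with a probe of their own. Total RNA of whole glands of C57BL6J mice was hybridised to 12 Illumina bead arrays, 6 for mice of 8 weeks and 6 for mice of 50 weeks. No treatment, mutation or sex is given for either age. Whether every array had a mouse of its own is not stated, so the spread behind the p-values is that among arrays and may partly be technical. Maturation and ageing cannot be told apart with this pair of ages.

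Guanylate-binding proteins are large GTPases and immunity-related GTPases smaller ones, and both families are transcribed in many cell types in response to interferons, above all interferon gamma. Their proteins gather on the membranes of vacuoles that hold bacteria or protozoan parasites, break these membranes and help to start inflammasome signalling. In mice the immunity-related GTPases fall into effectors (Iigp1, Ifi47, Tgtp1) and regulators (Irgm1, Irgm2, Igtp), which sit on the membranes of the cell and keep the effectors inactive there. Epithelium is among the tissues that can express both families.

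Interferon signalling reaches these genes through short DNA elements near the transcription start. RefSeq promoter windows of assembly GRCm38.p6, from 250 bases before to 50 bases after a start, were taken for 7 of the 9 genes. No window of Gbp6 or Iigp1 was examined as a member window, and both are named only. The search of member windows left a chromosome out, so the 7 genes need not be all that had a window. The core of the interferon-stimulated response element, GAAA followed by any 2 bases and a second GAAA, was searched on both strands and stood in a window of 6 of these 7 genes, against 3.44% of 32851 windows of all genes. The letters TTCNNNGAA, the core of the gamma-activated site, read the same on both strands and stood in the windows of 3 of the 7 genes, against 8.3% of all windows. The stretches around the matches are shown because they set the members side by side, with the matched letters in capitals.
Gbp2, chr3:142620579-142620638, plus strand: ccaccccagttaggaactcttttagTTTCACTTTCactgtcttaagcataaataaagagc
Gbp3, chr3:142559974-142560039, plus strand: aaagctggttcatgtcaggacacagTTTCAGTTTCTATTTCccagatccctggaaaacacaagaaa
Irgm1, chr11:48871410-48871475, minus strand: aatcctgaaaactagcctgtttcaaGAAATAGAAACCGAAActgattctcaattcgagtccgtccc
Igtp, chr11:58199497-58199556, plus strand: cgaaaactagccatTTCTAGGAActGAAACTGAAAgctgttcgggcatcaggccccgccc
Irgm2, chr11:58214888-58214947, plus strand: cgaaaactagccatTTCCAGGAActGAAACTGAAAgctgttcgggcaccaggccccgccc
Tgtp1, chr11:48992289-48992348, minus strand: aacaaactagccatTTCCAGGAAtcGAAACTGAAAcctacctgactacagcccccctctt

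In Gbp2 and Gbp3 the response element lies on the opposite strand, and Gbp3 and Irgm1 each hold 2 overlapping copies. In Igtp, Irgm2 and Tgtp1 a gamma-activated site stands 2 bases before the response element. That arrangement was found in 5 of the 32851 windows, those of Igtp, Irgm2, Tgtp1, its near copy Tgtp2 and Gm12185. Igtp and Irgm2 are neighbours in the RefSeq gene order, and their windows were identical at 244 of 265 aligned bases (92.1%). The window of Ifi47 held neither set of letters. A match is a description of the letters and does not show that a factor binds there.

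The gland was recognisable on the arrays, since 7 of 7 measured markers of submandibular acini and ducts, among them Klk1, Egf, Aqp5 and Prol1, were detected on all 12 arrays. Mean probe intensity ran from 207 to 324 per array, and 15318 to 18110 probes were detected, a probe counting as detected at a detection p-value under 0.05. The number of arrays limits the precision. Array 6 of 50 weeks correlated less with the other arrays of its age (mean r over genes 0.949) than any other array (0.975 or more). Array 2 of 8 weeks had the highest value of its age for every measured member. Results that rest on these arrays are given with and without them.

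**Figure D1:**
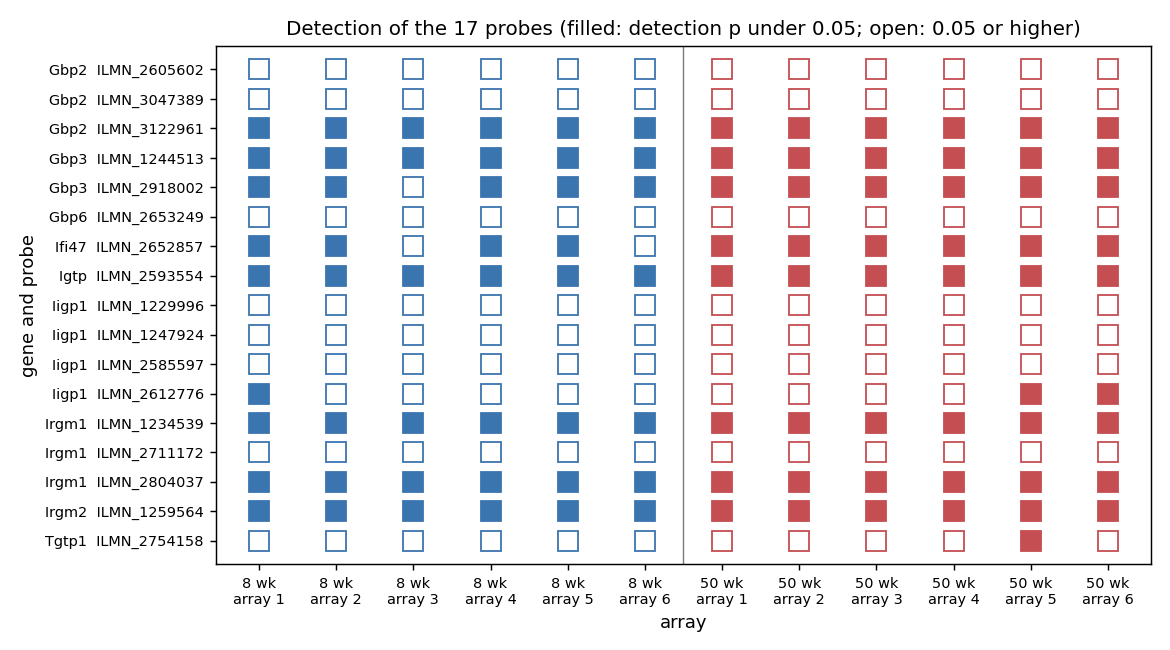
Detection of the 17 probes of the 9 genes on each of the 12 arrays; a filled square marks a detection p-value under 0.05 and an open square a higher one, in blue at 8 weeks and red at 50 weeks. 8 probes of 6 genes pass the filter of at least 6 detected arrays, while Gbp6, Iigp1 and Tgtp1 have no such probe.

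Of the 9 genes 6 were measured, through 8 probes that were detected on at least 6 of the 12 arrays, and 3 genes stayed below that filter. Gbp6, a guanylate-binding protein, was detected on 0 of 12 arrays, with a detection p-value of 0.365 at its lowest. Tgtp1, an effector GTPase with a near copy, Tgtp2, was detected on 0 of 6 arrays at 8 weeks and on 1 of 6 at 50 weeks, array 5, with log2 intensities from 4.38 to 5.22 over all arrays. Iigp1, the effector best studied in resistance to Toxoplasma, had 4 probes. On 3 of these 0 of 12 arrays passed, and ILMN_2612776 was detected on 1 of 6 arrays at 8 weeks and 2 of 6 at 50 weeks, with log2 intensities from 4.49 to 5.11. The lowest detected intensity averaged 5.02 over the young and 4.92 over the old arrays, so these 3 genes had no fold between the ages, and a level below it is not shown to be absent. In Gbp2, 2 of 3 probes were detected on 0 of 12 arrays, as was 1 of 3 in Irgm1.

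The 6 measured genes were compared between the ages on background-corrected, quantile-normalised log2 intensities by limma's moderated test, adjusted over 9379 genes, with the brightest probe standing for a gene. All 6 passed, each higher at 50 weeks, while 6.35% of all genes tested were higher, 6.13% were lower and 12.5% differed in either direction. Of the 8 probes 7 passed over all probes, where 4.95% were higher and 9.64% differed. The rises ran from 1.24-fold for Irgm1 to 3.81-fold for Gbp2. Members that entered the fit had to be detected, so the count does not describe the 3 genes below the filter. The members and the gene lists below were chosen with earlier results of these data known. Their counts beside the shares of all genes are therefore no independent evidence of a direction. The median difference of all genes was -0.02.

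**Figure D2:**
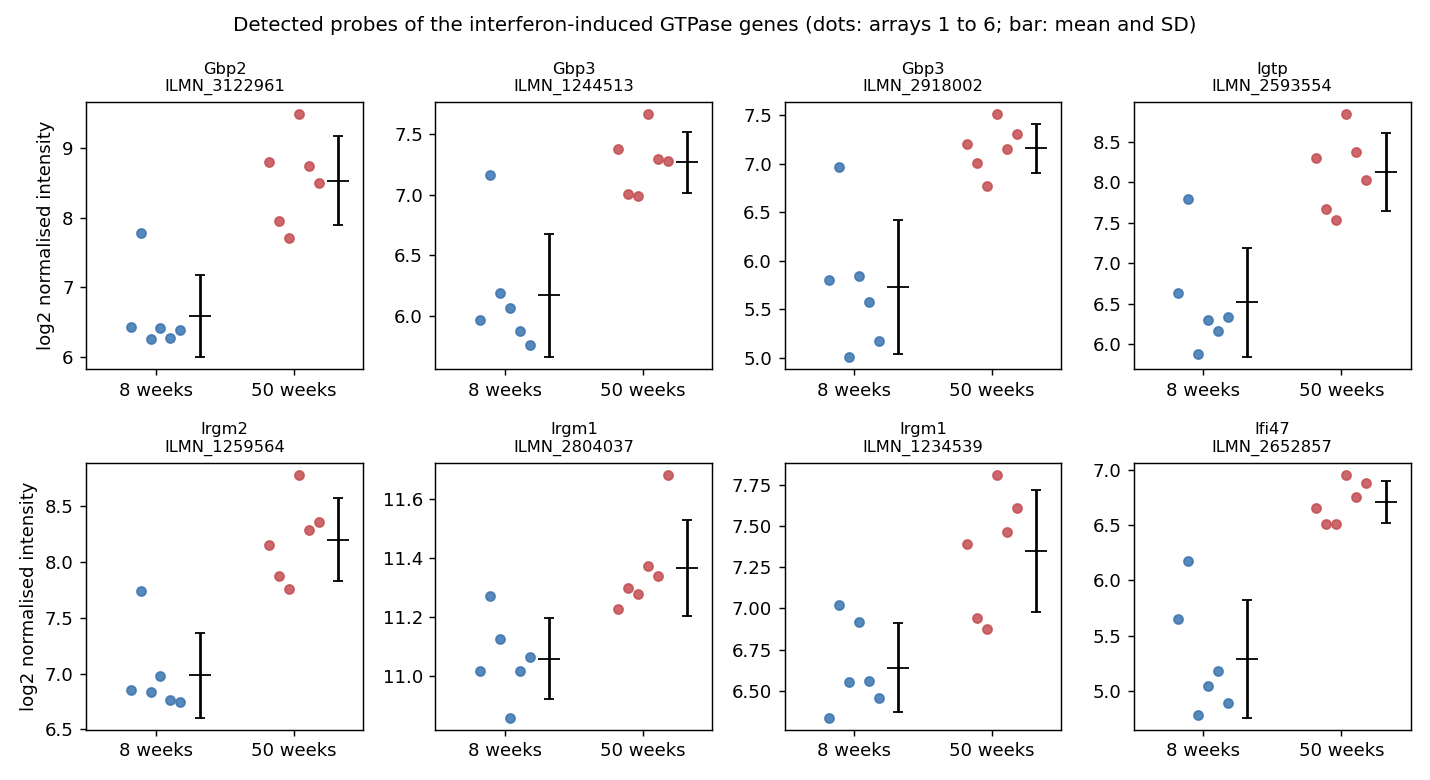
Log2 normalised intensity of the 8 detected probes of the 6 measured genes at 8 weeks (blue) and 50 weeks (red), 1 dot per array in order of array number, with mean and SD beside the dots. The ages are apart for Ifi47 and Irgm2, and for the others 1 array of 8 weeks, array 2, lies within the range of 50 weeks, except that on the second Irgm1 probe array 4 does too.

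Gbp2, a prenylated guanylate-binding protein that is recruited to bacterial and parasite vacuoles, had the largest difference of the 6 measured genes. Its detected probe, ILMN_3122961, had a lowest, median and highest log2 intensity of 6.26, 6.41 and 7.78 at 8 weeks and of 7.70, 8.61 and 9.48 at 50 weeks. Of the young arrays, 5 lay between 6.26 and 6.43, and array 2 alone reached the range of the old arrays. The mean went from 6.60 ± 0.59 to 8.53 ± 0.64 (SD, n = 6), a log2 difference of 1.93 ± 0.30 (SE, adjusted p = 0.00127, limma), and 5 of 6 old arrays were above every young array.

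Gbp3 had 2 detected probes that moved alike. On the brighter one, ILMN_1244513, the lowest, median and highest values were 5.76, 6.02 and 7.16 at 8 weeks and 6.99, 7.28 and 7.67 at 50 weeks. The ages overlapped through array 2 of 8 weeks only. The difference was 1.10 ± 0.20 (SE), a 2.14-fold rise (adjusted p = 0.0037, limma), with 4 of 6 old arrays above every young array. The other probe, ILMN_2918002, below detection on 1 young array, gave 1.43 ± 0.26 (adjusted p = 0.00422 over 16254 probes, limma).

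Igtp, a regulator of the effector GTPases that is also called Irgm3, had lowest, median and highest values of 5.88, 6.32 and 7.80 at 8 weeks and 7.54, 8.16 and 8.85 at 50 weeks. Of the old arrays, 4 of 6 were above every young array, and the young array within the old range was again array 2. The difference was 1.61 ± 0.29 (SE), a 3.05-fold rise (adjusted p = 0.00325, limma).

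Irgm2, the neighbour of Igtp and a regulator that sits at the Golgi, had 6.75, 6.84 and 7.74 at 8 weeks and 7.75, 8.22 and 8.78 at 50 weeks. Here the ages did not overlap, but array 2 of 8 weeks (7.74) and array 3 of 50 weeks (7.75) nearly met. Among all genes tested, 3.34% had every old array above every young array. The difference was 1.21 ± 0.19 (SE), a 2.32-fold rise (adjusted p = 0.00126, limma).

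Irgm1, the regulator whose loss in mice impairs resistance to mycobacteria, had the smallest difference and the least secure call. Its brightest probe, ILMN_2804037, had 10.86, 11.04 and 11.27 at 8 weeks and 11.23, 11.32 and 11.68 at 50 weeks, and array 1 of 50 weeks lay below array 2 of 8 weeks. The difference was 0.31 ± 0.09 (SE), a 1.24-fold rise (adjusted p = 0.0458 over genes and 0.0584 over probes, limma). The call over genes ended in 10 of the 12 fits that left out 1 array (adjusted p up to 0.0988), all but those without array 2 of 8 weeks or array 6 of 50 weeks. With the mean of its kept probes in place of the brightest, Irgm1 rose by 0.51 (adjusted p = 0.011, limma).

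A second Irgm1 probe, ILMN_1234539, was detected on all 12 arrays and rose more. It had 6.34, 6.56 and 7.02 at 8 weeks and 6.88, 7.43 and 7.81 at 50 weeks, a difference of 0.71 ± 0.17 (SE, adjusted p = 0.0192 over probes, limma), and passed in every alternative tried. The age differences of the 2 probes were 0.40 ± 0.17 apart (SE). The files do not say which transcripts each probe reads.

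Ifi47, an effector GTPase also called Irgd, had 4.79, 5.12 and 6.18 at 8 weeks and 6.51, 6.70 and 6.95 at 50 weeks. Detection failed on arrays 3 and 6 of 8 weeks and on no other array, and the ages did not overlap. The difference was 1.42 ± 0.20 (SE), a 2.67-fold rise (adjusted p = 0.000633, limma), and 1.36 with each value below the lowest detected intensity of its array raised to it.

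The rises differed in size within the set. Set against the brightest Irgm1 probe within each array, the rises of the other 5 members were larger by 0.79 ± 0.21 for Gbp3 to 1.62 ± 0.33 for Gbp2 (SE). That probe was picked after the values were seen, as the one that rose least, so this is a description and has no test. The brightest Irgm1 probe lay farther above background than the other probes, and background subtraction acts more on dim probes. Without it the differences of Gbp2, Gbp3, Igtp, Irgm2 and Ifi47 were 1.29, 0.58, 1.01, 0.82 and 0.58 and that of Irgm1 was 0.29. The part of background subtraction in the unequal rises was not tested.

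The members varied together between arrays of 1 age. At 8 weeks array 2 was the highest array for 6 of 6 measured members, by up to 1.28 above the mean of its age on the log2 scale, and at 4 of the 6 it reached the range of the old arrays. At 50 weeks array 4 was the highest for 5 of 6 members, Irgm1 being highest on array 6, and array 3 the lowest for 5 of 6. Among the 5 members other than Irgm1, the correlation over 12 arrays after removing the mean of each age ran from r = 0.75 for Gbp2 with Ifi47 to r = 0.96 for Gbp2 with Irgm2. The same pairs gave 0.42 to 0.93 without array 2 of 8 weeks. With Irgm1 the 5 correlations ran from 0.35 to 0.51, and from 0.02 to 0.30 without that array. These are descriptions over arrays that share their RNA and normalisation, and the spread of Irgm1 was small.

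**Figure D3:**
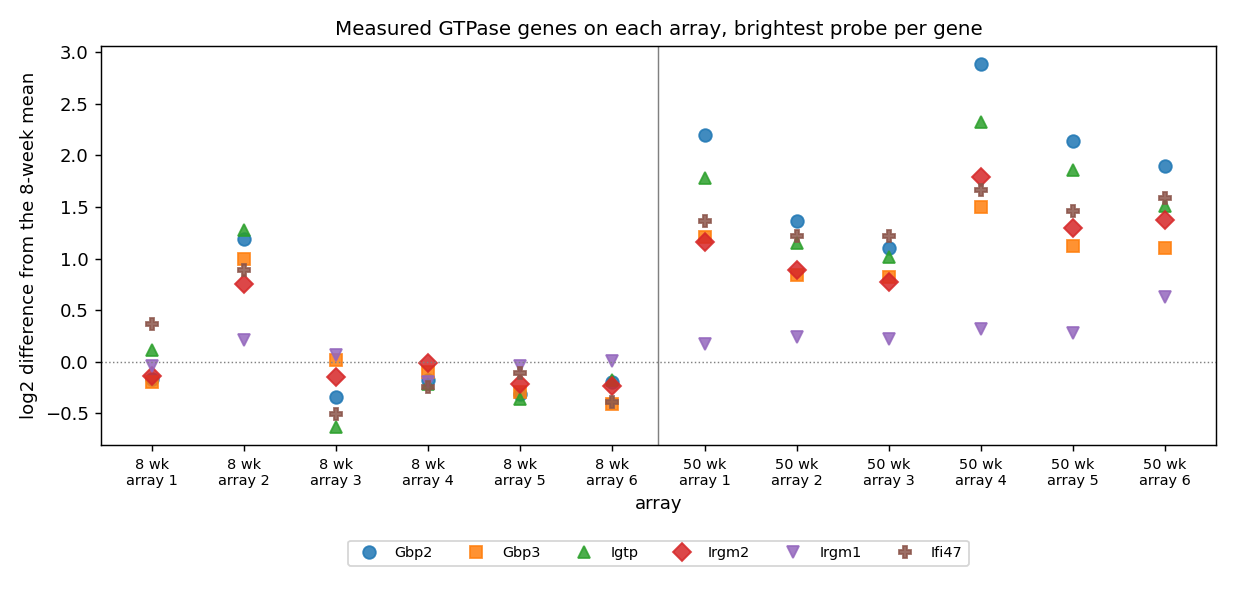
Log2 difference of the 6 measured genes from their 8-week mean on each of the 12 arrays, brightest probe per gene. Array 2 of 8 weeks is the highest young array for all 6 genes, array 4 of 50 weeks is highest for 5 of 6, and Irgm1 moves least at 50 weeks.

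Array 2 of 8 weeks was the only young array within the old range on the brightest probes. Leaving it out therefore set the ages apart for 6 of 6 measured members, and this count supports nothing. Without that array the differences were 2.17 for Gbp2, 1.87 for Igtp, 1.60 for Ifi47, 1.37 for Irgm2, 1.30 for Gbp3 and 0.35 for Irgm1. With array 6 of 50 weeks left out as well they were 2.17, 1.88, 1.59, 1.33, 1.30 and 0.28, and all 6 passed (adjusted p up to 0.00954, limma). Array 2 of 8 weeks was picked by its high values for these same members, so passing without it adds no support.

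The 5 genes outside the families that were most like the members were chosen by Pearson's r with the mean of the 6 measured members over 12 arrays after removing the mean of each age. They were Cxcl9, a chemokine that draws T cells (r = 0.93, Spearman's rho = 0.93), Ifitm1, a small antiviral membrane protein (0.91 and 0.78), the immunoproteasome subunit Psmb9 (0.88 and 0.74), the MHC class I light chain B2m (0.87 and 0.75) and Nlrc5, the transactivator of MHC class I genes (0.86 and 0.75). Without array 2 of 8 weeks and array 4 of 50 weeks, the arrays farthest from the median, r was 0.89, 0.60, 0.84, 0.65 and 0.79. At 8 weeks Cxcl9 and Nlrc5 were detected on 1 and 3 of 6 arrays, so their r rests partly on values near background. No gene was tested here, and the ranking is a description of these arrays. Ifitm1 rose by 0.67 ± 0.10 (SE, adjusted p = 0.000832, limma).

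Of the other genes of the GTPase families, 17 of 23 sought had a probe, 5 were measured and 3 of these rose. The share of all genes tested that rose was 6.35%. Gvin1, a very large interferon-inducible GTPase, rose by 1.31 ± 0.29 (SE, adjusted p = 0.0108, limma). Gm4951, an immunity-related GTPase gene, passed detection on a single young array and on every old one, and its level was higher by at least 1.13-fold (adjusted p = 0.00728, limma). Gbp7, a guanylate-binding protein next to Gbp3 in the gene order, had the same detection, and its level was higher by at least 1.21-fold (adjusted p = 0.0352, limma). For both, the old arrays alone met the filter, so their place among the 3 supports nothing.

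The other 2 measured relatives did not pass. The dynamin-like Mx2, with detection on a single young array, had a fitted difference of 0.44 ± 0.15 (SE, adjusted p = 0.0656, limma). Its bound, 1.16-fold higher at 50 weeks, was not tested. Irgq, a relative that is not known as interferon-induced, differed by -0.05 ± 0.10 (SE, adjusted p = 0.794, limma). The median over the 5 was 0.45, or 0.21 with 3 bounds in place of fitted values. Below the filter, at 50 weeks Gbp2b and 9930111J21Rik2 were each detected on 4 of 6 arrays, and at 8 weeks on 1 and 0 of 6. Gbp10 was detected on 2 of 6 arrays at either age, Irgc1 and Gm12250 on 1 of 6 at 8 weeks and 2 of 6 at 50 weeks, and Mx1 on 0 and 1 of 6. The 6 relatives Gbp4, Gbp5, Gbp8, Gbp9, Gbp11 and 9930111J21Rik1 were detected on 0 of 12 arrays.

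Of 13 measured genes for interferon ligands, receptors and signalling, 4 rose, 0 fell and 9 did not pass, with a median difference of 0.11. Shares over all genes were 6.35% higher and 6.13% lower. The risers were Irf8 (0.75 ± 0.09), Irf1 (0.73 ± 0.16) and Stat2 (0.66 ± 0.10), transcription factors of the response, and Usp18 (0.79 ± 0.16), which dampens type I receptor signalling (SE; adjusted p from 0.000193 to 0.00975, limma). The transcription factors Irf9 and Irf2 differed by 0.20 ± 0.12 and -0.08 ± 0.08 (SE) and did not pass. The receptor subunits Ifngr1, Ifngr2 and Ifnar2 differed by 0.06 ± 0.14, 0.11 ± 0.22 and 0.05 ± 0.19, and the kinases Jak1, Jak2 and Tyk2 by -0.17 ± 0.13, 0.00 ± 0.13 and 0.10 ± 0.08 (SE). The ligand genes Ifng and Ifnb1 and the receptor gene Ifnar1 were detected on 0 of 12 arrays, which bounds their level only by the background of the array.

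Beside the GTPases, other interferon targets were higher in both lists written for them, and many of these genes answer to both kinds of interferon. Of 13 measured genes induced mainly by interferon gamma, 10 rose and 0 fell, against 6.35% and 6.13% of all genes. Their median was 0.73, or 0.64 with 6 bounds. Cxcl9 was at least 3.96-fold higher, Nlrc5 at least 2.50-fold and Cxcl10, a related chemokine, at least 1.12-fold, detected on 1, 3 and 0 of 6 young arrays. Cd274, also among the 10, was at least 1.49-fold higher and was detected on 3 of 6 young arrays and on every old one. For each of these genes the 6 old arrays alone met the filter, so their place among the 10 supports nothing. Psmb9, detected on all 12 arrays, rose by 1.44 ± 0.25 (SE, adjusted p = 0.00277, limma). Of 12 measured genes induced mainly by type I interferon, 8 rose and 0 fell, with a median of 0.66. Irf7, the amplifier of that response, rose by 1.09 ± 0.22, the antiviral genes Ifit3 and Oasl2 by 0.97 ± 0.14 and 0.93 ± 0.15, and Ifitm3 by 0.76 ± 0.11 (SE; adjusted p from 0.00064 to 0.00614, limma). Both lists were written with earlier results of these data known, so their counts are no independent evidence of a direction. With only probes detected at p under 0.01 on all 12 arrays, 5 and 4 genes rose.

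**Figure D4:**
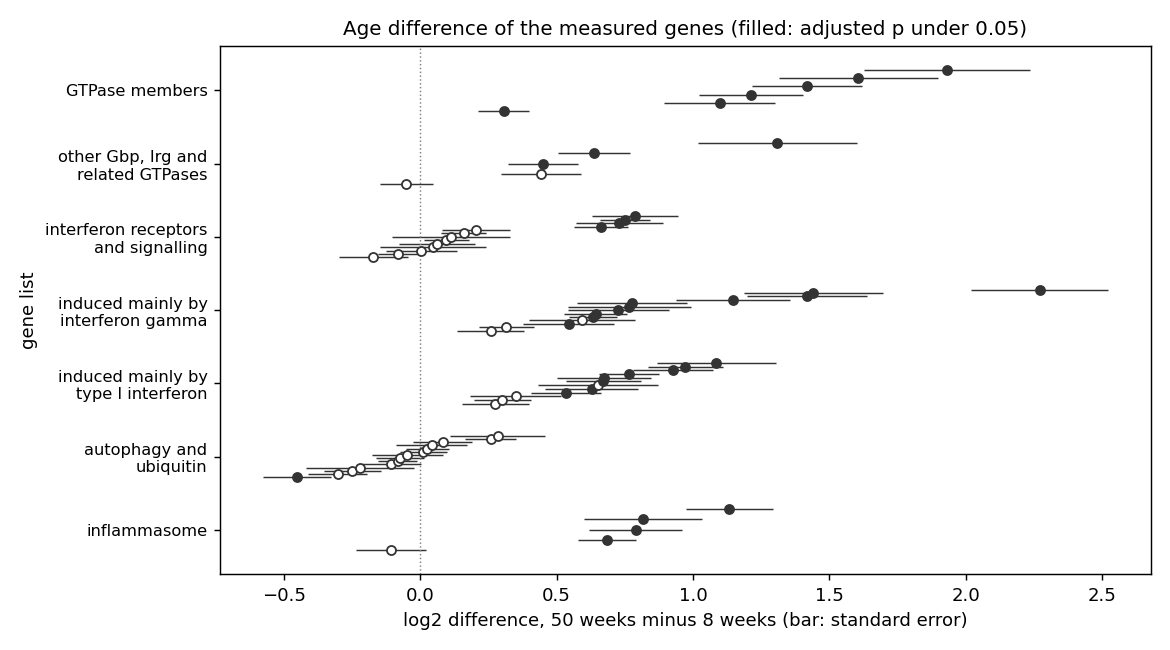
Log2 difference, 50 weeks minus 8 weeks, of each measured gene with its standard error, by gene list; filled points have an adjusted p under 0.05 over 9379 genes. The 6 members lie between 0.31 and 1.93, 4 of 5 inflammasome genes pass on the positive side, and 13 of 14 autophagy and ubiquitin genes do not pass.

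The autophagy and ubiquitin genes that place these GTPases on vacuoles were all measured, and of 14, 0 rose, 1 fell and 13 did not pass, with a median of -0.06. Among all genes 6.13% fell. Array weights gave 2 higher and 3 lower, the fit without array 2 of 8 weeks 0 and 2, and that without array 6 of 50 weeks as well 1 and 3. The 1 that fell was Gabarapl1, a ubiquitin-like protein of the autophagosome membrane (-0.45 ± 0.13, adjusted p = 0.0309, limma), and its call ended with a replicate block, with median scaling of the arrays, with no detection filter and without array 3, 4 or 6 of 8 weeks or array 1, 3 or 4 of 50 weeks. Its relatives Map1lc3b and Map1lc3a differed by -0.30 ± 0.11 and -0.25 ± 0.10 (SE, adjusted p = 0.0818 and 0.138, limma). Atg5, Atg7 and Atg16l1, which conjugate these proteins to membranes, differed by 0.01 ± 0.09, 0.04 ± 0.13 and 0.03 ± 0.08 (SE). Trim21, a ubiquitin ligase that is itself interferon-inducible, differed by 0.26 ± 0.09 (SE, adjusted p = 0.0855, limma).

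Of 10 inflammasome genes downstream of guanylate-binding proteins, 5 were measured, 4 rose and 0 fell, with a median of 0.79. All genes tested gave 6.35% higher and 6.13% lower. With only probes detected at p under 0.01 on all 12 arrays 1 rose, and with array weights 4 rose and 1 fell. Casp1, the protease that matures interleukins, rose by 1.13 ± 0.16, Gsdmd, the pore-forming protein it cuts, by 0.82 ± 0.22, and Naip2, a sensor of bacterial secretion systems, by 0.79 ± 0.17 (SE; adjusted p = 0.000614, 0.025 and 0.00926, limma). Casp4, the caspase that binds bacterial lipopolysaccharide, passed detection on no young array and on every old one, and its level was higher by at least 1.26-fold. It entered the fit through the old arrays alone, so its place among the 4 supports nothing. The adaptor Pycard differed by -0.11 ± 0.13 (SE, adjusted p = 0.646, limma). At 50 weeks Il1b was detected on 4 of 6 arrays and Aim2 on 2 of 6, both on 0 of 6 at 8 weeks, and Nlrp3 on 0 of 12.

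Markers of other cell types were read on the same arrays. Of 9 measured macrophage and dendritic cell markers 7 rose and 0 fell, against 6.35% and 6.13% of all genes. Their summed normalised intensity ran from 1509 to 3434 at 8 weeks and from 2890 to 4353 at 50 weeks. Array 2 of 8 weeks, the high array of the GTPases, held the 3434, and the next young array had 2280. Itgam and Flt3 were detected on 0 of 12 arrays.

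Of 8 measured T and NK cell markers 3 rose, with sums of 2565 to 3455 and 2935 to 4502, in which Cd8b1 and Prf1 took the largest part and did not pass. Cd3g, 1 of the 3, was detected on 2 of 6 young arrays and on every old one, so its place among them supports nothing. Cd8a, Cd247, Gzmb, Ncr1 and Ifng were detected on 0 of 12 arrays. Of 3 measured B and plasma cell markers 2 rose, with sums of 66.5 to 179 and 149 to 659, and Pax5 and Tnfrsf17 were detected on 0 of 12 arrays. The 2 that rose, Mzb1 and Pou2af1, were detected on 2 and 1 of 6 young arrays and on every old one. Their old arrays alone met the filter, so this count supports nothing. For T and NK cells and for B and plasma cells, array 2 of 8 weeks had sums of 3079 and 133, each below another young array. The T and NK sum mostly follows Cd8b1 and Prf1, so it does not show how that array stands for the dimmer markers. Of 7 measured endothelial markers 0 rose and 1 fell, with sums of 483 to 606 and 477 to 542. Array 2 of 8 weeks held the 606, and the next young array had 596. The marker counts stand beside 6.35% higher and 6.13% lower over all genes. In RNA of whole glands, more cells of a type and more RNA per cell cannot be told apart, and the part of these cell types in the rise of the GTPases was not tested.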

How the data were processed

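Total RNA of 12 gland samples was measured on Illumina arrays. In the deposited non-normalised table each of 45281 probes has, per the file headers, a linear intensity and a detection p-value for each of 12 arrays. The authors also deposited these intensity values multiplied by a factor for each array (0.803 to 1.26). The sources used here give no slide positions. Background correction and quantile normalisation used neqc (offset 16) of limma 3.58.1 in R 4.3.3, with statmod 1.5.0 for array weights. Probes detected at p under 0.05 on at least 6 of 12 arrays were kept (16254), and the brightest of 13842 kept probes with 1 symbol stood for its gene. Symbols of 34807 probes were matched to RefSeq, and 0 changed.

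Ages were compared with lmFit and eBayes of limma, 2-sided, with Benjamini-Hochberg adjustment over 9379 genes or 16254 probes and a threshold of 0.05. Changes are log2 values at 50 weeks minus 8 weeks. Where a gene was detected on at most 3 of 6 arrays of an age, or its mean there lay below the lowest detected intensity, its fold is a bound, with lower values raised to that intensity. An adjusted p printed beside a bound is that of the fitted difference, and the bound itself has no test. The fit was tested on simulated data.

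The members and lists were chosen with earlier results of these data known. Named genes were the 9 members, all relatives on the array, for each list the up to 4 genes of lowest adjusted p, and the 5 genes most like the members. Receptors, kinases, Irf2, Irf9, Cd274, Atg genes, Pycard, single cell type markers and undetected genes were named beyond that rule, after their values were seen. RefSeq promoters were searched for motifs, and protein motifs were not analysed here. Probe sequences were not used, so signals of near copies (Tgtp1 and Tgtp2, Gbp6 and Gbp10) are uncertain. Alternatives covered background, scaling, the deposited scaled values, detection filters, probe choice, array weights, a replicate block and left-out arrays.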

Additional observations from a re-analysis of the deposited data

Results flagged for a closer look

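Values of 35 probes named above were examined within each age, 70 groups of 6 arrays in all, for a highest or lowest array whose gap to its neighbour, as a share of the whole range, exceeded Dixon's 95% critical value, which chance gives in about 1 of 20 groups. This held in 9 groups, 7 of them through array 2 of 8 weeks. That array was the high one for Gbp2 (7.78 against 6.43 for the next array, a share of 0.886), Irgm2 (7.74 against 6.97, 0.772) and Gbp3 on ILMN_1244513 (7.16 against 6.19, 0.697). It was also high for Gbp7 (5.20 against 4.89, 0.673), Cxcl9 (5.87 against 4.90, 0.657), Psmb9 (7.92 against 6.69, 0.704) and B2m (13.19 against 12.03, 0.772). Cxcl9, Psmb9 and B2m had been chosen for likeness to the members over these same arrays. Their place among the 7 is therefore not independent of that choice. Array 6 of 50 weeks was high for Irgm1 on ILMN_2804037 (11.68 against 11.37, 0.680) and low for Irf8 (8.18 against 8.38, 0.659). No explanation was tested.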

How the results depend on the processing

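Gbp2, Gbp3, Igtp, Irgm2 and Ifi47 stayed higher and past the threshold in every alternative in which they were measured; Ifi47 was not measured under the strict detection filter, which tested 6637 genes. Without background correction their differences were 1.29, 0.58, 1.01, 0.82 and 0.58, and on the authors' scaled values 1.31, 0.60, 1.01, 0.84 and 0.56. Irgm1 no longer passed with arrays scaled to the same median (0.42, adjusted p = 0.111, limma), with no detection filter (0.31, adjusted p = 0.0541, over 19057 genes) or with a replicate block (0.31, adjusted p = 0.0862). Leaving out 1 array gave 0.24 to 0.35. The mean of its kept probes gave 0.51 (adjusted p = 0.011), and it also passed with no background correction, the authors' scaled values, the strict filter and array weights. Median scaling moved the median of all genes to 0.10, and relative to it Irgm1 differed by 0.32 and the others by 1.14 to 1.96.

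Of all genes, 1171 passed (596 higher, 575 lower). Median scaling gave 393 (320 and 73), array weights 2593 (1155 and 1438), the authors' scaled values 348 lower, and leaving out both array 2 of 8 weeks and array 6 of 50 weeks 2508 (1109 and 1399). Leaving out 1 array gave 792 (412 and 380, without array 1 of 50 weeks) to 2317 (1047 and 1270, without array 6 of 50 weeks). The cause was not tested. The replicate block gave 911 (501 and 410), 5 members and 7 of their probes. Arrays of the same number correlated from -0.01 to 0.30, and 1 of 6 numbers matched its own best, so the numbers were not taken as pairs. 0 results reversed.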
